A study of Mus musculus with 8 samples.

Results

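Serine synthesis and folate one-carbon enzymes were examined in bulk RNA-seq of mouse CD8+ T cells under persistent stimulation. Members were taken by gene symbol, from a list chosen with earlier results of these data known. All 10 were found among the 22520 genes and assembled transcripts of the table: *Phgdh*, *Psat1*, *Psph*, *Shmt1*, *Shmt2*, *Mthfd1*, *Mthfd1l*, *Mthfd2*, *Mthfd2l* and *Aldh1l2*. The cells were splenic CD8+ T cells kept for 6 days with anti-CD3, anti-CD28 and IL-2, an in vitro model of exhaustion by persistent TCR stimulation. From day 3 to day 6 the medium held either 40 µM DADA (diisopropylamine dichloroacetate, an inhibitor of pyruvate dehydrogenase kinase) or an equal volume of DMSO, its solvent. Both groups shared the stimulation, and each had 4 libraries described as biological replicates, without a note of which mice they came from. The comparison asked how the drug changed the transcripts of cells under this stimulation.

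Serine is made from a glycolytic intermediate in 3 steps, catalysed in turn by PHGDH, PSAT1 and PSPH. Serine hydroxymethyltransferases (SHMT1 in the cytosol, SHMT2 in mitochondria) then pass a carbon of serine to tetrahydrofolate and release glycine. In mitochondria that carbon is oxidised by MTHFD2 or MTHFD2L and set free as formate by MTHFD1L, and in the cytosol MTHFD1 loads formate back onto folate for purine and thymidylate synthesis. Activated T cells are known to induce this pathway when they grow and divide.

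Values are FPKM (fragments per kilobase of transcript, scaled to the sequencing depth), so levels can be compared between genes. FPKM summed to 450473 to 456939 per DMSO library and 438299 to 449480 per DADA library. The depth is not recorded in FPKM, and an estimate from the steps between low values was 13660000 to 16420000 fragments with DMSO and 15120000 to 18660000 with DADA. Of 6 CD8+ T cell markers, 5 were measured (*Cd8a*, *Cd8b1*, *Cd3d*, *Cd3e* and *Cd3g*). Their summed level was 674 to 680.1 FPKM with DMSO and 776 to 805 FPKM with DADA. At the threshold used below, 5 of 5 were higher with DADA, as were 30.9% of all genes tested. Summed markers of CD4 T cells, NK cells, myeloid cells and erythroid cells stayed at or below 0.513 FPKM in every library. B cell markers summed to 2.36 to 3.54 FPKM, nearly all of it *Cd79b*. The part of these differences in the results was not tested, and in bulk RNA fewer cells with a transcript and less of it per cell cannot be told apart.

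With DADA, 9 of the 10 enzymes were lower and 1, *Mthfd1l*, was higher (limma on log2(FPKM + 1), adjusted p under 0.05). The response was broad, and 66.2% of the 10666 genes tested passed the same threshold, 35.3% lower and 30.9% higher. All 10 enzymes passed the filter of 1 FPKM in at least 4 libraries. Their median log2 fold change was -0.35, and that of all genes tested was -0.02. The DMSO and DADA values did not overlap for any of the 10, as for 60.6% of all genes tested. All DADA libraries lay below all DMSO libraries for 9 of them and for 32.2% of genes tested, and above for 1 and for 28.4%. With 4 against 4 libraries the exact permutation test gave p = 0.0286 for each enzyme, the smallest value that its 70 assignments allow. All fold changes below are on the log2(FPKM + 1) scale, which understates the change of genes at low FPKM.

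**Figure D1:**
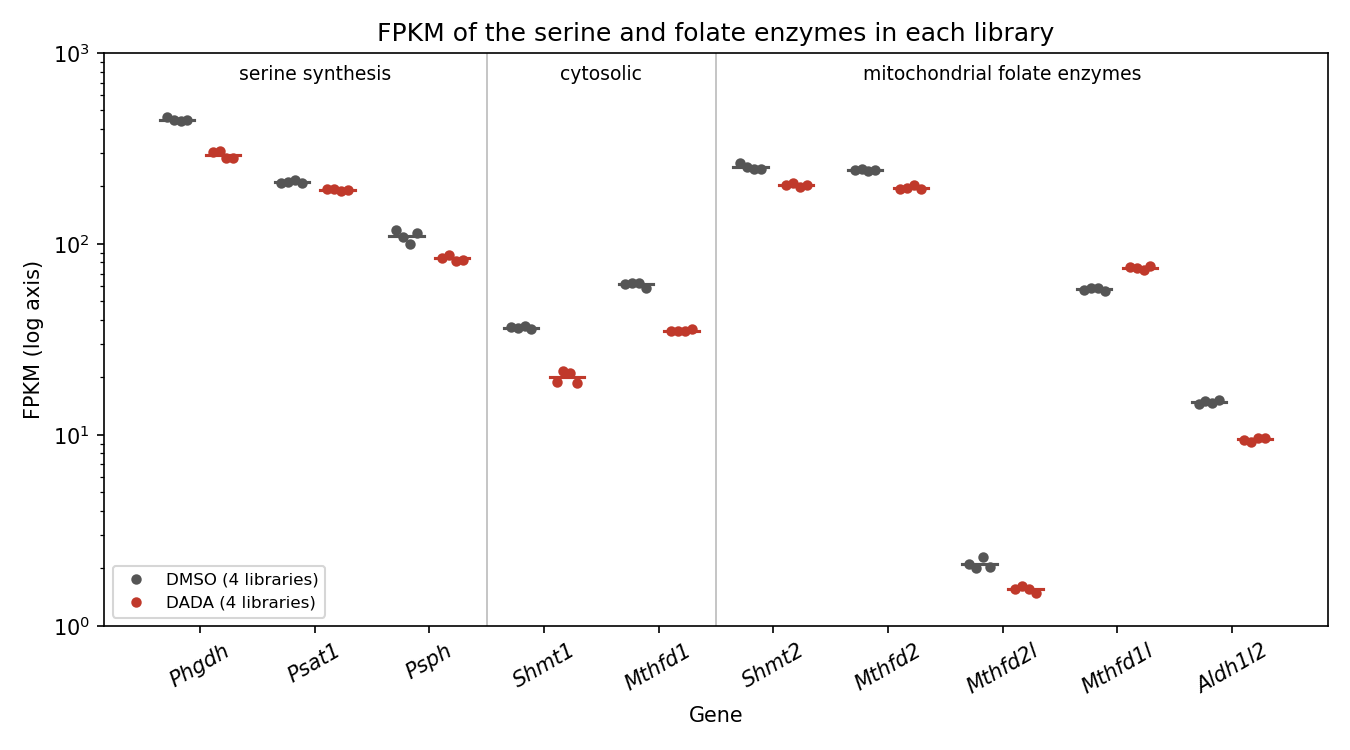
FPKM of each enzyme (logarithmic axis) in the 4 DMSO and 4 DADA libraries, with points for libraries and short lines for group means. The DADA points lie below the DMSO points for 9 enzymes and above them for *Mthfd1l*, and levels run from about 448 FPKM for *Phgdh* to 1.55 FPKM for *Mthfd2l*.

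All 3 enzymes of serine synthesis were lower with DADA, by unequal amounts. *Phgdh* (ENSMUSG00000053398), which catalyses the first step, was at 464, 444, 439 and 445 FPKM in DMSO libraries 1 to 4 and at 302, 305, 283 and 282 FPKM in DADA libraries 1 to 4. No DADA library came within 133 FPKM of a DMSO library. Its mean fell from 448 ± 11.2 to 293 ± 12.5 FPKM (SD, n = 4), a change of -34.6%, with a log2 fold change of -0.61 (SE 0.0324, limma, adjusted p = 1.01e-07). Only 2.93% of the genes tested had a lower log2 fold change than *Phgdh*.

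*Psat1* (ENSMUSG00000024640), the aminotransferase of the next step, was at 208, 212, 216 and 208 FPKM with DMSO and at 193, 194, 189 and 191 FPKM with DADA. The groups did not overlap, with 13.5 FPKM between the nearest libraries, but the relative difference was the smallest of the 10 enzymes. Its mean fell from 211 ± 3.99 to 192 ± 2.23 FPKM, by 9.11%, with a log2 fold change of -0.14 (SE 0.0208, limma, adjusted p = 0.000218), and 34.2% of the genes tested had a lower one.

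*Psph* (ENSMUSG00000029446), the phosphatase that releases serine, was at 119, 109, 99.5 and 114 FPKM with DMSO and at 84.4, 87.9, 81.6 and 82.5 FPKM with DADA. Relative to the mean, DMSO libraries varied more for *Psph* than for the other enzymes of serine synthesis, with DMSO 3 the lowest. From a mean of 111 ± 8.45 FPKM the level fell to 84.1 ± 2.79 FPKM, with a log2 fold change of -0.39 (SE 0.0506, limma, adjusted p = 7.48e-05). Together the 3 transcripts summed to 754 to 791 FPKM with DMSO and 553 to 587 FPKM with DADA.

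Both cytosolic folate enzymes had the largest relative falls among the 10. *Shmt1* (ENSMUSG00000020534), the cytosolic serine hydroxymethyltransferase, was at 36.9, 36.3, 37.0 and 35.8 FPKM with DMSO and at 19.0, 21.5, 21.2 and 18.7 FPKM with DADA. Its mean fell by 44.9%, from 36.5 ± 0.552 to 20.1 ± 1.44 FPKM, and the log2 fold change was -0.83 (SE 0.0453, limma, adjusted p = 1.22e-07). A lower value was found for 0.825% of the genes tested.

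*Mthfd1* (ENSMUSG00000021048), the trifunctional enzyme that loads formate onto cytosolic folate, was at 62.0, 62.3, 62.3 and 58.7 FPKM with DMSO and at 34.9, 34.9, 34.9 and 36.0 FPKM with DADA. The number 4 library of each group stood slightly closer to the other group than the rest did. On average *Mthfd1* fell by 42.6%, from 61.3 ± 1.78 to 35.2 ± 0.535 FPKM, with a log2 fold change of -0.78 (SE 0.0269, limma, adjusted p = 4.32e-09).

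Of the 5 mitochondrial enzymes, 4 were lower and 1 was higher with DADA. *Shmt2* (ENSMUSG00000025403), the mitochondrial serine hydroxymethyltransferase, was at 266, 254, 248 and 246 FPKM with DMSO and at 204, 209, 198 and 204 FPKM with DADA. *Mthfd2* (ENSMUSG00000005667), a mitochondrial dehydrogenase and cyclohydrolase, was at 245, 248, 241 and 244 FPKM with DMSO and at 193, 196, 203 and 194 FPKM with DADA. These transcripts stood at similar levels in both groups and each fell by 19.6%. The log2 fold change was -0.31 for *Shmt2* (SE 0.0287, limma, adjusted p = 5.79e-06). It was also -0.31 for *Mthfd2* (SE 0.0223, limma, adjusted p = 8.84e-07).

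*Aldh1l2* (ENSMUSG00000020256), which oxidises the formyl group of mitochondrial folate to CO2 and yields NADPH, was at 14.5, 15.1, 14.7 and 15.2 FPKM with DMSO and at 9.45, 9.22, 9.69 and 9.61 FPKM with DADA. On average it fell by 36.1%, more than the means of *Shmt2* and *Mthfd2*, although the differences between these enzymes were not tested. The log2 fold change was -0.60 (SE 0.0323, limma, adjusted p = 1.19e-07).

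*Mthfd2l* (ENSMUSG00000029376), a close relative of *Mthfd2*, was the lowest of the 10, at 2.12, 2.01, 2.28 and 2.03 FPKM with DMSO and at 1.56, 1.61, 1.56 and 1.48 FPKM with DADA. By the estimated depth such a level stood for at most 98 to 137 fragments per library. The groups were 0.399 FPKM apart at their nearest. Its log2 fold change was -0.29 (SE 0.0538, limma, adjusted p = 0.000948), and it was -0.42 with a pseudocount of 0.1 in place of 1.

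*Mthfd1l* (ENSMUSG00000040675), the mitochondrial synthetase that releases formate, went the other way. It was at 57.7, 58.9, 58.5 and 56.5 FPKM with DMSO and at 75.8, 74.7, 72.8 and 76.3 FPKM with DADA. All 4 DADA libraries stood above all 4 DMSO libraries. The mean rose from 57.9 ± 1.06 to 74.9 ± 1.58 FPKM, a change of 29.4%, and the log2 fold change was 0.37 (SE 0.0242, limma, adjusted p = 5.07e-07). Of the genes tested, 85.6% had a lower log2 fold change.

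**Figure D2:**
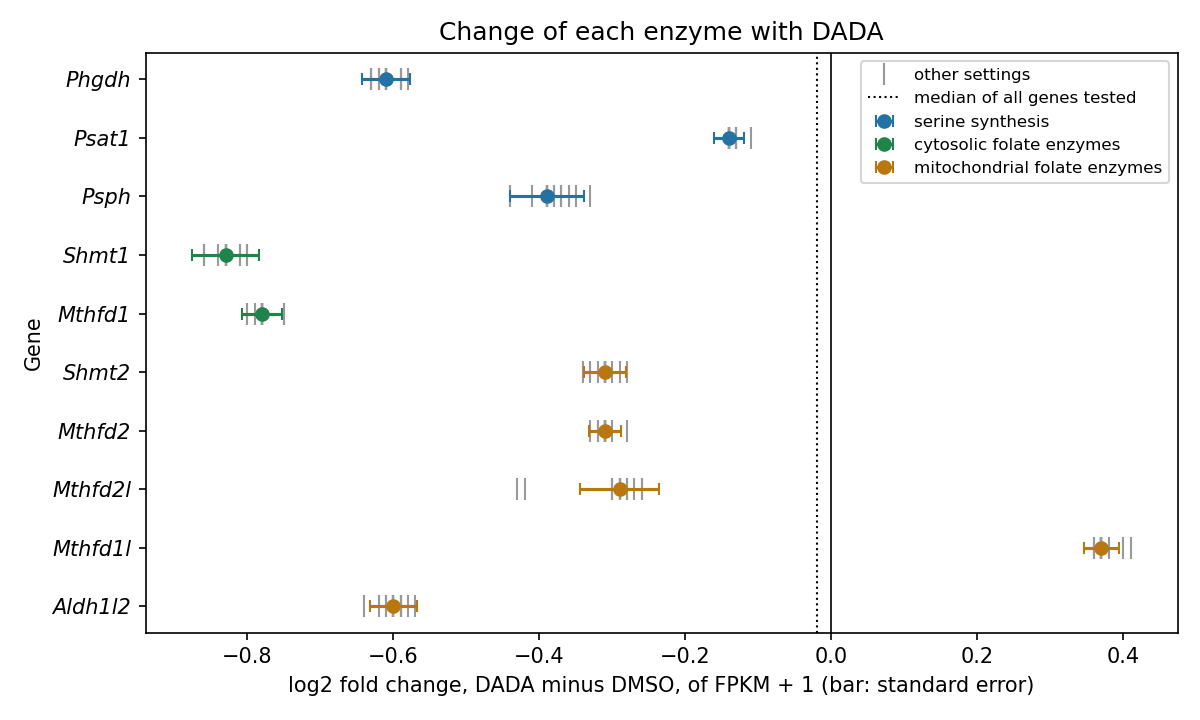
Log2 fold change of each enzyme, DADA minus DMSO, on the log2(FPKM + 1) scale, with bars for the standard error, colours for the role and grey ticks for the values under other settings. The cytosolic pair *Shmt1* and *Mthfd1* lies farthest to the left at -0.83 and -0.78, and *Mthfd1l* is the point to the right of 0, at 0.37.

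Since 3 mitochondrial enzymes have a related enzyme on the list, their ratio was computed within each library. The ratio of *Shmt2* to *Shmt1* was 6.94 ± 0.212 with DMSO, with libraries from 6.71 to 7.22, and 10.2 ± 0.742 with DADA, from 9.37 to 10.9. *Shmt1* fell more than *Shmt2*, and the log2 ratio rose by 0.52 (exact permutation test, two-sided, p = 0.0286, adjusted over 3 pairs 0.0429). *Mthfd1l* over *Mthfd1* was 0.944 ± 0.0141 with DMSO, from 0.93 to 0.963, and 2.13 ± 0.0369 with DADA, from 2.08 to 2.17. Here the enzymes of the pair moved apart, and the log2 ratio rose by 1.15 (exact permutation test, p = 0.0286, adjusted 0.0429).

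For *Mthfd2* over *Mthfd2l*, both enzymes fell and the ratios overlapped between groups, being 116 ± 7.75 in DMSO libraries and 127 ± 4.63 in DADA libraries. The log2 ratio with 1 FPKM added to both genes differed by -0.03 (exact permutation test, p = 0.486, adjusted 0.486), and by 0.11 with a pseudocount of 0.1 or after quantile normalization. No difference was detectable for this pair, whose direction depends on the pseudocount.

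**Figure D3:**
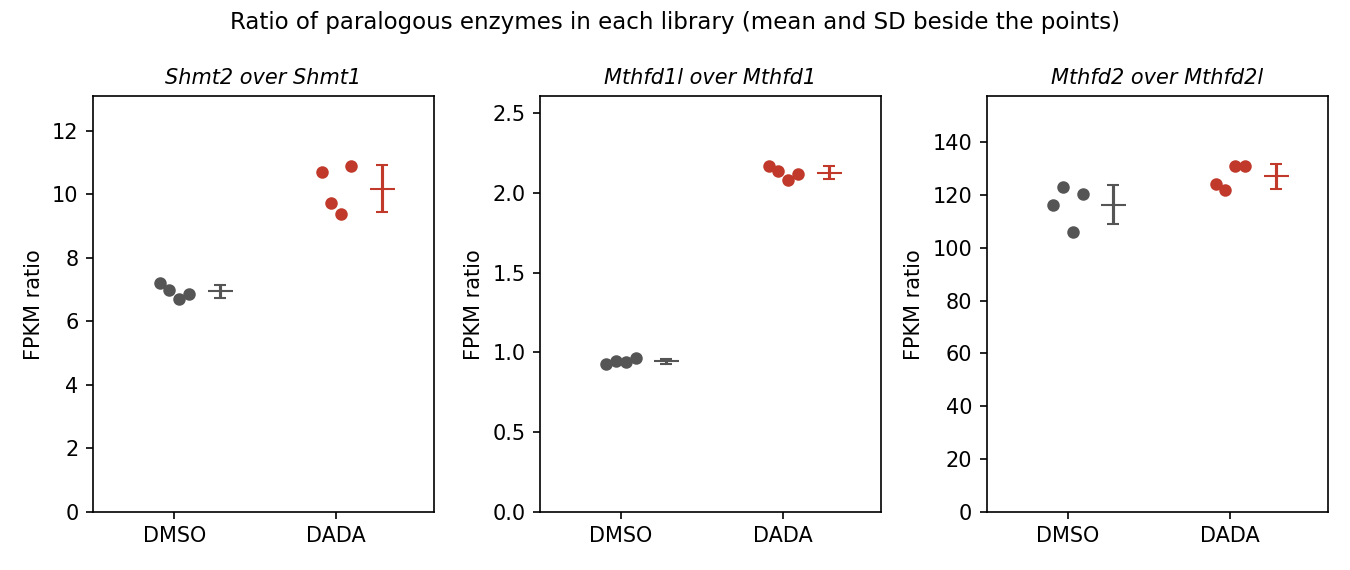
Ratio of the FPKM of the mitochondrial enzyme to that of its related enzyme in each library on linear axes from 0, with a point per library and the group mean and SD beside the points. *Shmt2* over *Shmt1* and *Mthfd1l* over *Mthfd1* are higher in every DADA library than in any DMSO library, while the groups overlap for *Mthfd2* over *Mthfd2l*.

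By level per transcript length, *Phgdh* was the most abundant of the 10 in both groups. With DMSO it was followed by *Shmt2* and *Mthfd2*, whose libraries overlapped, then by *Psat1*, *Psph*, *Mthfd1* and *Mthfd1l*, of which the last pair overlapped, and by *Shmt1*, *Aldh1l2* and *Mthfd2l*. With DADA the libraries of *Shmt2*, *Mthfd2* and *Psat1* overlapped one after the other, and *Mthfd1l* stood above *Mthfd1* with no overlap. Among all genes and transcripts, *Phgdh* went from rank 131 to 190 by mean FPKM, *Mthfd1* from 1238 to 2267 and *Mthfd1l* from 1335 to 926.

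Summed over all 10, the transcripts made up 0.314 to 0.323% of the total FPKM of a DMSO library and 0.247 to 0.253% of a DADA library. The cytosolic pair took 0.021 to 0.022% with DMSO and 0.0122 to 0.0128% with DADA. The 5 mitochondrial enzymes took 0.125 to 0.128% and 0.109 to 0.111%, a smaller relative difference, with *Mthfd1l* rising within that sum.

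To show what sequence lies upstream of enzymes that fell and of the one that rose, 100 bases before the start site are printed for 6 of them from RefSeq (GRCm38.p6), each read 5′ to 3′ in the direction of transcription. Capitals mark CCAAT or its reverse complement ATTGG, the CCAAT box of many growth-related promoters, which was searched for after the sequences had been seen.
Phgdh (chr3:98339970-98340069, minus strand): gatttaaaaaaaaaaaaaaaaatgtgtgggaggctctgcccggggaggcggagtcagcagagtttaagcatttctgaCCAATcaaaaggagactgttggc
Shmt1 (chr11:60811266-60811365, minus strand): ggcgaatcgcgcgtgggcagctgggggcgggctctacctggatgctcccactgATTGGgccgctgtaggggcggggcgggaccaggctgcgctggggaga
Mthfd1 (chr12:76255132-76255231, plus strand): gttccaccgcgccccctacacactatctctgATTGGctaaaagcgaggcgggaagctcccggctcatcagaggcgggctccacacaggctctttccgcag
Mthfd2 (chr6:83317605-83317704, minus strand): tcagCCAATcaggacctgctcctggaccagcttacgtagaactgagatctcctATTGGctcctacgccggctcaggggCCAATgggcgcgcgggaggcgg
Shmt2 (chr10:127522445-127522544, minus strand): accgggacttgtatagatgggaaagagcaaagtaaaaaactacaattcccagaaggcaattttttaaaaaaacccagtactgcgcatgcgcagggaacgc
Mthfd1l (chr10:3972975-3973074, plus strand): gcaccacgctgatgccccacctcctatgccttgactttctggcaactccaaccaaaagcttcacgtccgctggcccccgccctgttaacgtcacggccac
Of the 10 windows of 9 enzymes, 6 held CCAAT on either strand (*Phgdh*, 1 window of *Psat1*, *Psph*, *Shmt1*, *Mthfd1* and *Mthfd2*), while 18.9% of 32851 windows of the same length did. As these letters were picked after the sequences had been seen, the shares are no test. All 6 enzymes with the letters fell. *Mthfd1l*, *Shmt2* and *Mthfd2l* held none, and of these *Mthfd1l* rose while *Shmt2* and *Mthfd2l* fell. With only 1 enzyme that rose, the windows cannot show whether the letters go with the direction of change. The window of *Mthfd2* held 3 matches. The letters TGATGNAA, the core of the element shared by ATF4 and C/EBP factors, and CACGTG, the E-box core bound by MYC, were searched on both strands from 250 bases before to 50 after the start. Neither was in any of the 10 windows of the 9 enzymes (*Psat1* has more than 1 start), against 3.97% and 7.15% of all windows. At such shares, absence from 10 windows says little. A match describes letters, not binding.

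Genes that supply or use one-carbon units were followed in lists around the 10 enzymes. The counts of each list stand against 35.3% lower and 30.9% higher among all genes tested. Of 8 genes for folate uptake and retention, 5 were tested, of which 4 fell and 1 rose, with a median log2 fold change of -0.37. *Fpgs*, which adds the glutamates that keep folate in cells, fell from 19.1 to 12.5 FPKM (log2 fold change -0.57, limma, adjusted p = 2.73e-06). *Slc25a32*, the mitochondrial folate carrier, fell from 8.77 to 5.97 FPKM. *Ggh*, which removes those glutamates, rose from 8.33 to 11.3 FPKM (log2 fold change 0.40, limma, adjusted p = 3.12e-05).

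Other enzymes that use folate were mostly lower. Of 7 other folate-dependent enzymes tested, 5 fell and 1 rose, with a median of -0.56. *Tyms*, thymidylate synthase, was at 22.8, 25.9, 23.6 and 23.0 FPKM with DMSO and at 12.1, 11.4, 12.2 and 11.1 FPKM with DADA, for which the log2 fold change was -0.97 (limma, adjusted p = 5.83e-08). All 8 genes of de novo purine synthesis fell, with a median of -0.58, and *Gart* and *Atic* stand in both lists. *Gart*, which uses formyl folate in purine synthesis, fell from 114 ± 2.14 FPKM to 53.4 FPKM (log2 fold change -1.09, limma, adjusted p = 3.53e-10), below any of the 10 enzymes in log2 fold change, and *Prps1* from 73.4 to 41.0 FPKM.

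Of 6 genes of the methionine cycle and transsulfuration tested, 5 fell and 1 rose, with a median of -0.37. *Cth*, which makes cysteine from cystathionine, fell from 118 to 57.1 FPKM (log2 fold change -1.04), *Mtr*, methionine synthase, from 11.8 to 6.62 FPKM (-0.74), and *Mat2b* rose from 35.1 to 38.6 FPKM (0.13). In the glycine cleavage list 4 of 7 genes were tested, of which 2 fell, 1 rose and 1 did not pass, with a median of -0.12. *Gcsh* fell from 25.5 to 14.3 FPKM and *Dld*, which also serves pyruvate dehydrogenase, from 81.8 to 61.6 FPKM, while *Amt*, at about 1 FPKM with DMSO, rose from 1.06 to 1.76 FPKM.

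Carriers and users of serine showed no common direction. Of 9 carriers of serine or glycine, 5 fell and 3 rose, with a median of -0.12. *Slc38a2*, a plasma membrane carrier of small neutral amino acids, rose from 54.3 to 80.6 FPKM (log2 fold change 0.56). *Sfxn2* rose from 4.71 to 6.54 FPKM, and *Slc25a38*, a mitochondrial glycine carrier, and *Slc6a9*, a plasma membrane glycine carrier, fell from 14.3 to 9.55 and from 26.1 to 20.5 FPKM. *Sfxn1*, a mitochondrial serine carrier, did not pass the test, at 40.9 to 43.8 FPKM with DMSO and 41.5 to 43.2 FPKM with DADA. Of 7 serine-consuming enzymes tested, 2 rose, 2 fell and 3 did not pass, with a median of 0.02. *Ptdss2*, a phosphatidylserine synthase, rose from 5.05 to 7.52 FPKM, *Sptlc2* from 7.12 to 8.48 FPKM, *Ptdss1* fell from 16.9 to 15.4 FPKM, and *Sars1*, the cytosolic seryl-tRNA synthetase, from 317 to 301 FPKM. The call of *Sars1* (limma, adjusted p = 0.0179) was lost after rescaling every library to the same total (adjusted p = 0.113), without DMSO 3 (0.0548) and without DADA 4 (0.0557).

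Transcripts of transcription factors known to act on these genes did not all move with them. The RNA values give neither the protein level nor the activity of these factors. *Myc* was at 124, 126, 120 and 116 FPKM with DMSO and at 167, 172, 173 and 177 FPKM with DADA, so its log2 fold change was 0.50 (limma, adjusted p = 2.13e-07). *Atf4*, the regulator of amino acid synthesis genes, fell slightly from 370.5 to 329 FPKM (log2 fold change -0.17, limma, adjusted p = 1.23e-04). *Mycn* was low, between 0.632 and 0.787 FPKM in DMSO libraries and between 2.44 and 2.64 FPKM in DADA libraries (log2 fold change 1.04). With every DMSO value under 1 FPKM, *Mycn* passed the filter only through the DADA libraries, so its call is not independent of the filter. Of 6 such regulators 4 rose, *Mycn* among them, and 1 fell, with a median of 0.26 that also includes *Mycn*. Among 14 other genes linked to ATF4, 8 fell and 3 rose, with a median of -0.22. *Asns*, asparagine synthetase, fell from 242 to 166 FPKM (-0.54) and *Nupr1* from 56.9 to 33.8 FPKM (-0.73), while *Ddit4*, an inhibitor of mTORC1, rose from 88.8 to 247 FPKM (1.47) and *Vldlr* from 5.10 to 10.2 FPKM (0.88).

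Proliferation genes moved the same way as most of the 10 enzymes. Of 18 such genes, 17 fell and 1 rose, against 35.3% and 30.9% of all genes tested, with a median log2 fold change of -0.47. *Tk1*, thymidine kinase, fell from 49.8 to 29.2 FPKM (-0.75) and *Ccna2*, a cyclin of S and G2 phase, from 79.9 to 49.5 FPKM (-0.68). *Mki67* rose from 56.8 to 61.6 FPKM (0.12, limma, adjusted p = 0.0240), but leaving out any 1 of DMSO 1, DMSO 2, DADA 3 and DADA 4 brought it above the threshold (adjusted p from 0.0536 to 0.0651). The part of proliferation in the lower levels of the 9 enzymes was not tested.

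**Figure D4:**
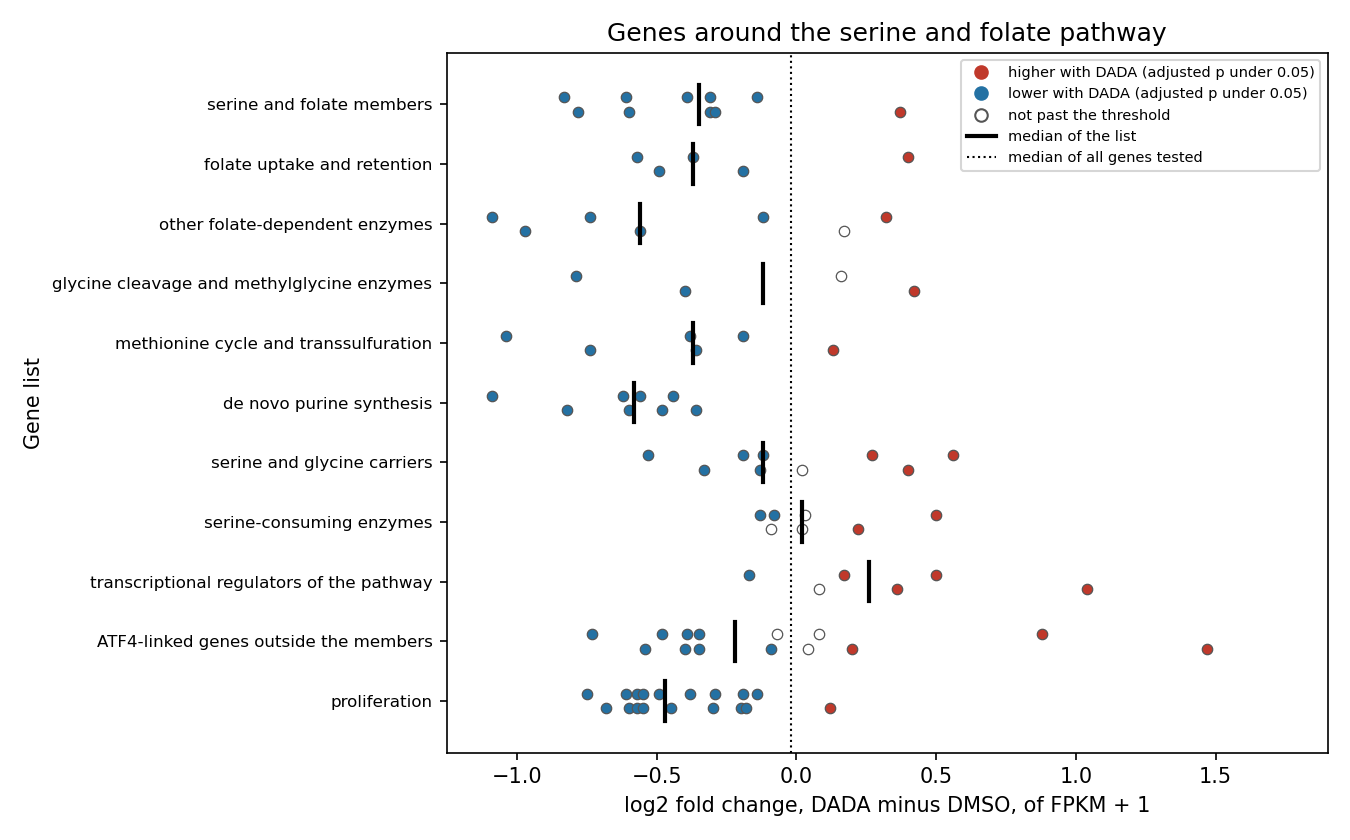
Log2 fold change (DADA minus DMSO, of FPKM + 1) of every tested gene of the 10 enzymes and of each list around them, with filled points for calls, open points for genes past no threshold, bars for list medians and a dotted line for the median of all genes tested at -0.02. Purine synthesis and proliferation have nearly all points to the left of 0, and 4 of the 6 regulators, *Mycn* among them, are called to the right.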

How the data were processed

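Libraries were grouped by their titles, as 4 Ctrl and 4 DADA. The Ctrl libraries are called DMSO here, after the solvent given to the control cells. The authors deposited FPKM, 1 value per gene and library. The submitters' processing notes list HISAT2 2.0.5, StringTie 1.3.3, SAMtools 0.1.18, Picard 1.41, FastQC 0.11.9 and CASAVA 1.8.2 and the builds GRCh38 and GRCm39, without roles, so coordinates are given only for the promoter windows, from RefSeq GRCm38.p6. The labels and the study's methods name different library kits, and whether counting used strand is not given in the sources used here. FPKM holds no counts, so no count model was used. Depth was estimated from the steps between low values in 4431 genes that have 1 annotated transcript each. Of the 377 to 425 low values used per library, 41.6 to 47.2% lay within 0.1 fragment of a whole number. Chance gives 20% at a depth fixed beforehand, but the depth with the highest share was taken, which raises that share.

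Values were tested as log2(FPKM + 1) with limma 3.58.1 in R 4.3.3 (1 term for DADA, mean-variance trend, two-sided, Benjamini-Hochberg adjustment over 10666 genes at 1 FPKM or more in at least 4 libraries, call at adjusted p under 0.05). The fit was first tested on simulated data in which far fewer genes changed than were called here. Paralog ratios were tested with exact permutations over 70 assignments. P-values measure the spread between these libraries, which may be partly technical. From each list the 2 called genes with the largest rise and the 2 with the largest fall were named. Tested genes named besides these (*Sfxn1*, *Atic* and *Slc19a1*) were chosen after their values were seen. A few listed genes are not reported here by name but remain in the counts. *Gart*, *Mtr* and *Atic* occur in more than 1 list. Members, lists and tests were chosen with earlier results of these data known. Other settings were a pseudocount of 0.1, no filter, a mean of at least 5 FPKM, equal totals (TPM), median-ratio scaling, quantile normalization, no trend, blocking on the replicate number, leaving out each library in turn and, added after seeing the data, no assembled transcripts.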

Additional observations from a re-analysis of the deposited data

Results flagged for a closer look

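Among 88 groups of 4 values (the 10 enzymes and the named genes around them), 6 had 1 library standing apart, where the gap to its nearest neighbour, as a share of the group's range, was above Dixon's critical value for 4 samples. Chance gives about 1 in 20, here 4.4. *Mthfd1* did so in both groups, with DMSO 4 at 58.7 FPKM against 62.0 to 62.3 FPKM (gap share 0.929) and DADA 4 at 36.0 FPKM against 34.9 FPKM in the others (0.982). Without DMSO 4 or DADA 4, as without any other library, its log2 fold change stayed between -0.80 and -0.78. The others were *Mat2b* in DMSO 1 (34.3 against 35.4 to 35.5 FPKM, 0.924), *Mtr* in DADA 3 (6.89 against 6.51 to 6.56 FPKM, 0.868), *Mycn* in DADA 2 (2.64 against 2.44 to 2.47 FPKM, 0.853) and *Ccna2* in DADA 4 (52.1 against 48.2 to 48.9 FPKM, 0.843).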

How the results depend on the processing

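All 10 enzymes kept their direction and their call under each of the other settings in which they were tested. *Mthfd2l* was not tested with a mean of at least 5 FPKM, which left 8 lower. Of 1141 values under other settings, 1119 kept their direction and side of the threshold, or stayed within 1.5 times for counts. The difference in the log2 ratio of *Mthfd2* over *Mthfd2l* turned from -0.03 to 0.11 with a pseudocount of 0.1 and to 0.11 after quantile normalization. Without any 1 library, the groups still did not overlap in the ratios of *Shmt2* over *Shmt1* and *Mthfd1l* over *Mthfd1*. Their log2 ratios rose by 0.49 to 0.56 and by 1.14 to 1.16. An exact permutation test of the absolute difference over 35 assignments gave adjusted p = 0.0429 each. That is fixed by the lack of overlap, so it adds nothing to it. The main ratio test defines its two-sided p differently, has a higher smallest p with unequal groups, and was not used here. With equal totals (TPM), 2 other folate-dependent enzymes were higher in place of 1 and 1 serine-consuming enzyme was lower in place of 2. Requiring a mean of 5 FPKM gave 0 higher in the glycine cleavage list, and no filter gave 2 higher in the methionine list. Leaving out 1 library at a time gave 1 to 2 other folate-dependent enzymes higher (2 without DADA 1) and 4 to 5 lower. Serine-consuming enzymes gave 1 to 3 lower (1 without DMSO 3 or DADA 4, 3 without DMSO 2). Carriers of serine or glycine gave 4 to 5 lower, regulators 4 to 5 higher and proliferation genes 0 to 1 higher. Over all genes tested, calls ranged over the settings from 2458 (mean of 5 FPKM or more) to 4007 (no filter) higher and from 3283 (mean of 5 FPKM or more) to 4116 (quantile normalization) lower. Low FPKM limits *Mthfd2l*, *Amt* and *Mycn* most.

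Libraries with the same replicate number did not deviate together (correlations 0.095, -0.12, -0.088 and 0.075), so the numbers were not taken as pairs. With the replicate number as a block, 3251 genes were higher and 3744 lower, and the 10 enzymes gave 9 lower and 1 higher as before. Flipping the signs of the same-numbered differences left the log2 ratios at 0.52 for *Shmt2* over *Shmt1* and 1.15 for *Mthfd1l* over *Mthfd1*, each with an exact p = 0.125, the smallest that 16 sign flips allow.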

Other observations

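Several enzymes of the same pathways were listed at or near 0 in these CD8+ T cells and stayed under the filter on low values. *Folr1*, a folate receptor, *Ftcd*, *Sardh*, *Sptlc3* and *Sdsl* were listed at 0 in all 8 libraries. *Aldh1l1*, the cytosolic counterpart of *Aldh1l2*, reached at most 0.147 FPKM, in DADA 4, whereas *Aldh1l2* was at 9.22 FPKM or more in every library. *Slc46a1*, the proton-coupled folate carrier, was at 0.18 to 0.51 FPKM, while *Slc19a1*, the reduced folate carrier, was at 24.5 to 29.0 FPKM. *Slc19a1* was tested and called lower with DADA (log2 fold change -0.19, limma, adjusted p = 0.000234). *Cbs*, which precedes *Cth* in transsulfuration, was at 0.432 to 0.838 FPKM with DMSO and 0.874 to 1.29 FPKM with DADA, and without the filter it was called higher (log2 fold change 0.35, limma, adjusted p = 0.020).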
